A study of Mus musculus with 11 samples.

Results

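The Bcl2 family decides whether mitochondria release the factors that start the intrinsic path of apoptosis. Survival proteins such as Bcl2, Bcl2l1 and Mcl1 hold the pore formers Bax and Bak1 in check, and the BH3-only proteins, among them Bcl2l11, Bmf, Bid, Bbc3 and Pmaip1, switch the pore formers on or block the survival proteins. In blood formation the balance is set largely by cytokines: Mcl1 is needed by stem cells, interleukin 7 sustains Bcl2 in lymphoid progenitors and early thymocytes, and Bcl2l11 is a main killer of lymphoid cells that lose such support.

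The 10 members were fixed by name, and each was read from the brightest probe set annotated to its symbol alone. Of these 10, 9 were measured, each by 1 probe set, among 19938 genes with a probe set of their own; Bax had no probe set annotated to it alone in the table used and was not analysed here. RNA came from sorted cells of C57BL/6J mice, with no treatment or transgene named in the labels. Bone marrow gave HSC (hematopoietic stem cells), LMPP (multipotent progenitors that are lymphoid-primed) and CLP (common lymphoid progenitors). Thymus gave ETP (early thymic precursors), then DN2 and DN3 (the double negative 2 and 3 stages). Populations are shown in this order, which the labels do not state to be a single path. Each population had 2 arrays except DN2, which had 1, making 11 arrays; the sources used here do not state gates, ages or any pooling of animals, so p-values may measure technical spread only. All values below are log2 intensities from the authors' RMA, on which a difference of 1 is a 2-fold ratio.

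Of 26 marker entries measured in 6 lists, one for each population, 13 were highest in their own population: 3 of 4 for HSC, 2 of 4 for LMPP, 3 of 5 for CLP, 0 of 4 for ETP, 1 of 4 for DN2 and 4 of 5 for DN3. Among them Slamf1 was highest in HSC (7.54), Ebf1 in CLP (9.27), Il2ra in DN2 (11.40) and Ptcra in DN3 (7.88). No listed marker thus set ETP apart from all the rest: Kit, at 9.37 in ETP, was highest in HSC (9.47), and Hes1 (8.23), Notch1 (7.56) and Gata3 (6.95) were higher still in DN3 (8.40, 8.33 and 8.02). Median intensity lay between 6.01 and 6.12 on the 11 arrays. Between replicates the median gap of a gene was widest in HSC (0.18) and narrowest in DN3 (0.11).

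The promoters of the members whose level changed are shown first, because the results turn on Bcl2 and Bcl2l11. They are RefSeq windows of 250 bases before to 50 after an annotated start on build GRCm38.p6, written 5′ to 3′ on the gene's strand, and capitals mark the core of the FOXO binding site (GTAAACA) and the E-box (CANNTG).
Bcl2 (chr1:106714241-106714540, minus strand): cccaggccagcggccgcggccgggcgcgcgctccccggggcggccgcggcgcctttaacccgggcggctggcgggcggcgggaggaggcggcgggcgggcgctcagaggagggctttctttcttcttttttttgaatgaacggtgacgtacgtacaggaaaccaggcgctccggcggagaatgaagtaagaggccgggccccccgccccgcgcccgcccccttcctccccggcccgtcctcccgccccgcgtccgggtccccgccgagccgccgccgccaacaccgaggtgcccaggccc
Bcl2l11, upstream start (chr2:128125788-128126087, plus strand): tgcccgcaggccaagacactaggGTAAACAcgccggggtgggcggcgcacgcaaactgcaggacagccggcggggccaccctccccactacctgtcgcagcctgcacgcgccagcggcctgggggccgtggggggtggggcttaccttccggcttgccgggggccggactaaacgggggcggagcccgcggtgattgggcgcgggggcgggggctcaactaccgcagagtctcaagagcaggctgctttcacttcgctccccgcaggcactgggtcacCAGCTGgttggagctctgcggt
Bcl2l11, downstream start (chr2:128127325-128127624, plus strand): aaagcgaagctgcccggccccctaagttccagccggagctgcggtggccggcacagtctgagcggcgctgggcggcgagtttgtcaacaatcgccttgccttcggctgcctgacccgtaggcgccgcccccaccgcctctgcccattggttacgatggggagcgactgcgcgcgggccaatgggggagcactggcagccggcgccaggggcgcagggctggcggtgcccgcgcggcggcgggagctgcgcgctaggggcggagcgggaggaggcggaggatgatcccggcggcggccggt

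All 3 windows were rich in G and C, with 76% for Bcl2 and 71% and 74% for Bcl2l11, against a median of 52.7% over 32851 windows of the same length. Searched on both strands, the FOXO core stood in 2 of the 16 member windows, 1 of Bcl2l11 and 1 of Bbc3, and in 3.65% of all windows. These 16 windows belonged to 9 of the 10 listed members, Bax among them, and Pmaip1 had none. For the members, windows of a single chromosome were left out beforehand, while the shares of all windows kept them. A member without windows here thus need not lack an annotated start. The STAT site (TTCNNNGAA), through which interleukin 7 signals reach DNA, was in 0 of the 16 windows and in 8.3% of all. E-boxes were in 11 of the 16 windows and in 72.3% of all; the marked E-box and FOXO core lie apart. These matches describe letters only, and no binding was measured.

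Over the 6 populations, 2 of the 9 members changed, namely Bcl2 and Bcl2l11, against 12.2% of all genes passing the same F test (limma, adjusted p under 0.05). Bcl2 was lowest in ETP, below the marrow populations as well as DN2 and DN3, and Bcl2l11 was lowest in HSC and highest in CLP. The other 7 members did not pass the F test (adjusted p from 0.22 to 0.95), and 0 of their 105 contrasts between 2 populations passed. The population means of a member spanned a median of 0.39, against 0.34 over all genes and 0.45 over the 48 other measured apoptosis genes described later.

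**Figure D1:**
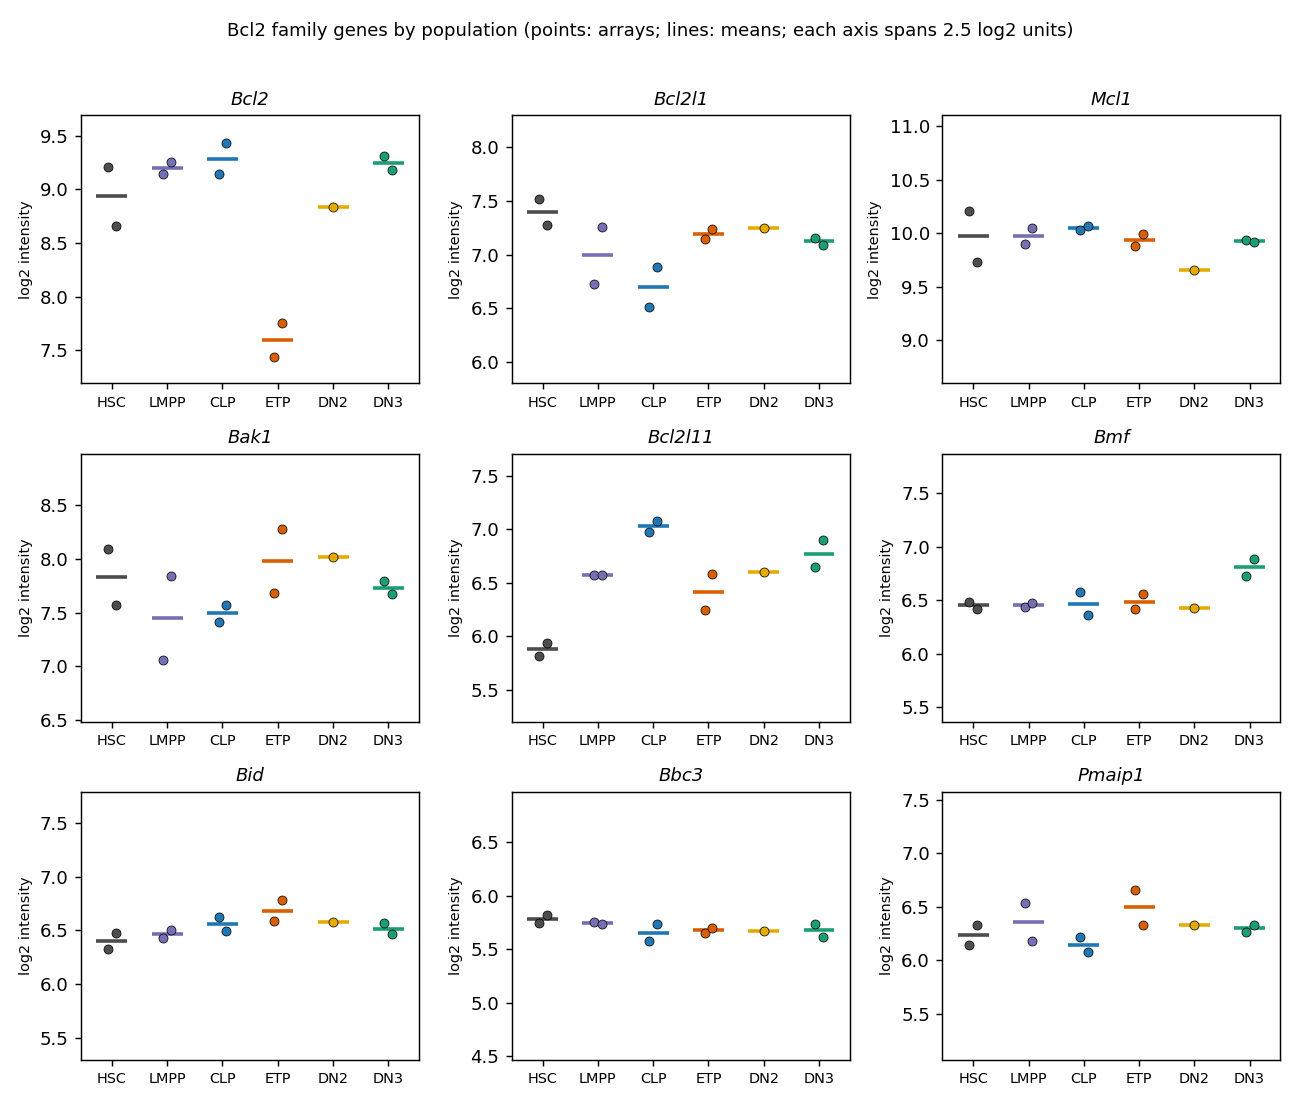
Log2 intensity (vertical axes, each 2.5 units tall) of the 9 measured members in the 6 populations, marrow first and then thymus. Points are arrays and lines are population means. The 2 ETP arrays lie below all others for Bcl2, the 2 HSC arrays lie lowest for Bcl2l11, and Bbc3 is flat.

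Among the survival genes, Bcl2, the founding member that keeps lymphocytes alive, stood at 9.21 and 8.66 in HSC, 9.15 and 9.25 in LMPP, 9.14 and 9.43 in CLP, 7.43 and 7.75 in ETP, 8.84 in DN2 and 9.31 and 9.18 in DN3. Both ETP arrays were below each of the other 9, and no other population was set apart. Ordered by mean, CLP came first, then DN3, LMPP, HSC, DN2 and ETP. Only the last step of that order, from DN2 to ETP, passed the test; the 4 neighbouring steps above it spanned 0.044 to 0.26 with adjusted p from 0.60 to 0.98.

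Bcl2 averaged 7.59 ± 0.23 in ETP against 9.20 ± 0.076 in LMPP (SD, n = 2 each), a log2 difference of -1.61 ± 0.19 (SE; 3.05-fold lower, limma adjusted p = 0.00118). Against CLP, at 9.29 ± 0.20, the difference was -1.69 ± 0.19 (3.24-fold lower, adjusted p = 0.000647), and against HSC, at 8.93 ± 0.39, it was -1.34 ± 0.19 (2.54-fold lower, adjusted p = 0.00172). These 3 contrasts share the ETP arrays. By size Bcl2 was number 31 of the 173 genes that fell in ETP against LMPP and number 44 of the 220 that fell against CLP. A lower level in sorted cells can be fewer cells with the transcript or less transcript per cell, which cannot be told apart here.

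Bcl2 was the 1 member of 9 that fell in ETP against LMPP and against CLP, where 0.868% and 1.1% of all genes fell; 0 members rose in either, where 1.44% and 1.41% of genes rose, and at an unadjusted p under 0.05 the members passing in either direction were 1 against LMPP and 4 against CLP. Against HSC it was again 1 of 9, beside 2.56% of genes falling, and 0 members rose, beside 2.57%. The fall passed without any 1 of the arrays, with differences from -1.77 to -1.45 against LMPP, -1.85 to -1.53 against CLP and -1.62 to -1.07 against HSC over all alternatives. Some markers of other cells were also higher in ETP: 3 of the 5 neutrophil and monocyte markers (Csf1r, S100a8 and Ccr2) peaked there, and the list's mean was 6.21 and 6.39 on the ETP arrays, against 5.16 to 5.59 on the other 9. Of that list Ly6g, a neutrophil surface protein, averaged 4.12 in ETP and lay between 3.86 and 4.13 over the populations. The natural killer list averaged 6.36 and 6.74 in ETP, against 5.40 to 6.44 elsewhere. Of its markers only Nkg7 peaked in ETP (10.43). Gzma peaked in DN3 (11.18, against 7.09 in ETP), Klrd1 and Klrb1c in CLP and Ncr1 in LMPP. The part of either list in the Bcl2 result was not tested.

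After ETP the level of Bcl2 was high again. DN3 stood 1.65 ± 0.19 above ETP (9.24 ± 0.094 against 7.59 ± 0.23, SD, n = 2 each; 3.14-fold, adjusted p = 0.000266), number 90 by size of the 535 genes that rose. Bcl2 was the 1 member of 9 to rise between these populations, beside 2.68% of genes; 0 fell, beside 3.89%, and 3 members passed at an unadjusted p under 0.05. That rise passed under every alternative run, with differences from 1.49 to 1.81.

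The single DN2 array was 1.24 ± 0.23 above ETP (8.84 against 7.59 ± 0.23; 2.37-fold, adjusted p = 0.0322), again the 1 member of 9 to rise, beside 0.321% of genes; 0 fell, beside 0.677%, and 1 passed at an unadjusted p under 0.05. This call was lost without ETP replicate 1 (adjusted p = 0.181), ETP replicate 2 (0.0704), any 1 LMPP array (0.0549) or any 1 DN3 array (0.0672), and after centring arrays on their medians (0.0665), while its size stayed between 1.09 and 1.40. DN3 against DN2 and DN3 against CLP had 0 members passing limma in either direction, beside 1.8% and 8.69% of genes; at an unadjusted p under 0.05 there were 1 and 2. The 3 contrasts not named elsewhere also had 0 members passing limma: DN2 against LMPP, beside 3.06% of genes, DN2 against CLP, beside 2.76%, and DN3 against LMPP, beside 10%, with 0, 2 and 1 members at an unadjusted p under 0.05. The interval of the Bcl2 difference between DN3 and CLP was -0.46 to 0.37.

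Bcl2l1, which encodes Bcl-xL, stood at 7.52 and 7.27 in HSC, 6.72 and 7.26 in LMPP, 6.51 and 6.88 in CLP, 7.15 and 7.24 in ETP, 7.25 in DN2 and 7.16 and 7.09 in DN3. Both CLP arrays were below both arrays of HSC, ETP and DN3 but overlapped LMPP. The CLP level of 6.70 ± 0.26 was 0.70 below the HSC level of 7.40 ± 0.18 (SD, n = 2 each), with a 95% interval of -1.11 to -0.29 and an adjusted p of 0.0542, just short of the threshold; it passed at 0.0251 without either LMPP replicate and at 0.0437 when dim genes were left out, while its adjusted p reached 0.326 without CLP replicate 1 (difference -0.51), 0.256 without HSC replicate 1 and 0.104 with array weights. The replicate gap of 0.54 in LMPP was the widest for this gene. No 2 neighbours in its order of HSC, DN2, ETP, DN3, LMPP and CLP passed (adjusted p from 0.76 to 1).

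Mcl1, the short-lived survival protein on which blood stem cells depend, was level. It stood at 10.21 and 9.73 in HSC, 9.90 and 10.04 in LMPP, 10.02 and 10.06 in CLP, 9.88 and 9.99 in ETP, 9.65 in DN2 and 9.94 and 9.92 in DN3. The HSC arrays alone spanned 0.48, more than the 0.39 between the highest and lowest population mean. Its difference between LMPP and HSC was 0.00089, with an interval of -0.34 to 0.34, so the data allow a change of about that size in either direction. The lowest value was that of the unreplicated DN2 array, 0.28 below ETP (adjusted p = 0.973).

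Bak1, the measured pore former, stood at 8.10 and 7.57 in HSC, 7.06 and 7.84 in LMPP, 7.41 and 7.57 in CLP, 7.68 and 8.28 in ETP, 8.02 in DN2 and 7.80 and 7.67 in DN3. Replicates differed by 0.52 in HSC, 0.78 in LMPP and 0.60 in ETP, the LMPP and ETP gaps being the widest of any member there. Its largest mean difference among the 8 comparisons was 0.53 in ETP over LMPP (7.98 ± 0.42 against 7.45 ± 0.55, adjusted p = 0.436), where the arrays overlapped. The interval of that difference, -0.063 to 1.12, allows a 2-fold rise.

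Among the BH3-only genes, Bcl2l11, which encodes Bim, stood at 5.82 and 5.94 in HSC, 6.57 and 6.57 in LMPP, 6.98 and 7.08 in CLP, 6.25 and 6.58 in ETP, 6.60 in DN2 and 6.64 and 6.90 in DN3. Every other array was above both HSC arrays, and both CLP arrays were above all the rest. The HSC values lay under log2 6 and under the medians over genes of those arrays (6.13 and 6.22). Without detection calls that HSC level cannot be told from background. The order by mean was CLP, DN3, DN2, LMPP, ETP and HSC; no neighbouring step of it passed, the last one, ETP over HSC, being 0.54 (adjusted p = 0.0598; 0.0484 after quantile normalization once more and 0.362 without ETP replicate 2).

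Bcl2l11 averaged 7.03 ± 0.073 in CLP against 5.88 ± 0.088 in HSC (SD, n = 2 each), 1.15 ± 0.14 higher (2.22-fold, adjusted p = 0.000647), and 6.77 ± 0.18 in DN3, 0.89 ± 0.14 above HSC (1.86-fold, adjusted p = 0.00202). In each of these contrasts it was the 1 member of 9 that rose, beside 2.68% and 4.17% of all genes, 0 fell, beside 3.6% and 5.43%, and both rises passed under every alternative run. The marrow rise came in 2 steps of which the first passed: LMPP at 6.57 was 0.69 ± 0.14 above HSC (1.62-fold, adjusted p = 0.0269), and CLP was 0.46 ± 0.14 above LMPP (adjusted p = 0.273). The 2 LMPP arrays gave the same value, as they did for 1.32% of all genes, so their own spread of 0 says little about precision. The contrasts with HSC share the HSC arrays, and their fold sizes rest on the low HSC level.

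In LMPP against HSC Bcl2l11 was the 1 member of 9 that rose, beside 1.23% of genes, and 0 fell, beside 1.71%, with 1 member passing at an unadjusted p under 0.05. That call was lost without HSC replicate 1 (adjusted p = 0.140), HSC replicate 2 (0.0539), LMPP replicate 1 (0.125) or LMPP replicate 2 (0.124), after median centring (0.0501), with array weights (0.0808) and in a fit of the 2 populations alone (0.104). In CLP against LMPP 0 members passed limma in either direction, beside 1.14% of genes, and 1 had an unadjusted p under 0.05. ETP was 0.61 ± 0.14 below CLP for Bcl2l11 (6.41 ± 0.24 against 7.03 ± 0.073; adjusted p = 0.0525), a difference that passed when dim genes were left out (0.0456) and after quantile normalization once more (0.033), but whose adjusted p reached 0.303 without ETP replicate 1 (difference -0.45), 0.198 without CLP replicate 2 and 0.183 in a fit of both populations alone. DN2 stood 0.72 ± 0.17 above HSC (6.60 against 5.88 ± 0.088; adjusted p = 0.0473, 1 of 9 members beside 1.74% of genes, with 0 falling beside 2.25%), a call lost under 10 of 17 alternatives, among them leaving out any 1 HSC, LMPP, CLP or DN3 array (adjusted p up to 0.146).

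The erythroid list (3 of 5 markers measured) averaged 6.15 and 6.47 on the HSC arrays, against 5.76 to 6.22 on the other 9, and of its 3 markers Klf1 was highest in HSC (6.44), Alas2 in ETP (6.54) and Epor in LMPP (6.19). The macrophage list averaged 5.46 and 5.52 on the HSC arrays, against 5.18 to 5.35 on the other 9, with 2 of its 5 markers highest in HSC (Vcam1 at 6.36 and C1qc at 5.41). The part of either list in the Bcl2l11 result was not tested.

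**Figure D2:**
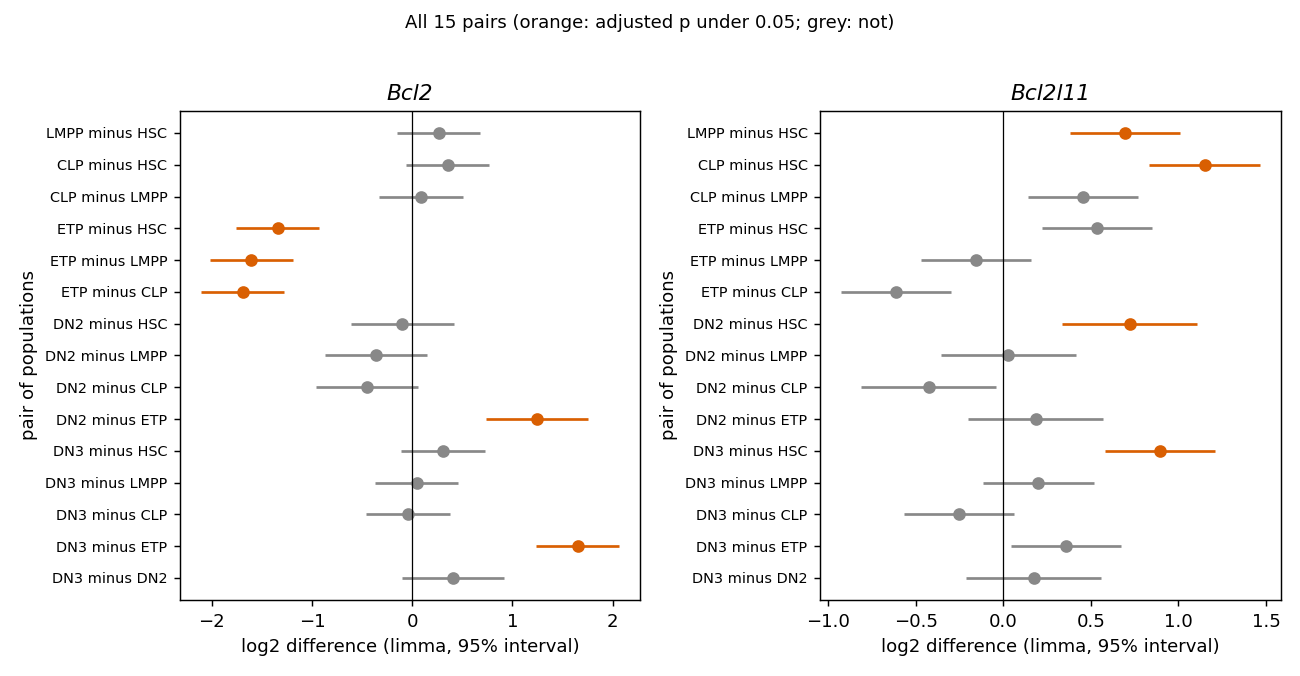
Log2 difference between the 2 populations of each of the 15 pairs (horizontal axes) with its 95% interval from limma, for Bcl2 and Bcl2l11; orange marks adjusted p under 0.05 and grey the rest. The 5 orange pairs of Bcl2 all involve ETP, and the 4 orange pairs of Bcl2l11 all involve HSC.

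Bmf, a BH3-only protein tied to the cell skeleton, was higher in DN3 than elsewhere but not past the threshold. It stood at 6.72 and 6.89 in DN3, and the other 9 arrays lay between 6.36 and 6.57, so DN3 did not overlap any other population. DN3 was 0.32 ± 0.12 above ETP (6.81 ± 0.12 against 6.49 ± 0.10, SD, n = 2 each; adjusted p = 0.211) and 0.34 ± 0.12 above CLP (6.81 ± 0.12 against 6.47 ± 0.15; adjusted p = 0.138).

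Bid, which links death receptors to mitochondria once caspase 8 cleaves it, stood at 6.58 and 6.78 in ETP and between 6.33 and 6.62 elsewhere. The ETP level of 6.68 ± 0.14 was 0.28 above the HSC level of 6.40 ± 0.10 (adjusted p = 0.294). Pmaip1, which encodes Noxa, a partner of Mcl1, stood at 6.66 and 6.33 in ETP and between 6.08 and 6.53 elsewhere; ETP was 0.35 above CLP (6.50 ± 0.23 against 6.15 ± 0.10; adjusted p = 0.432). On 4 arrays Pmaip1 had one and the same value of 6.33. Bbc3, which encodes Puma, a BH3-only protein induced by DNA damage, stayed between 5.57 and 5.82 on all 11 arrays, with a span of 0.13 between population means; it lay under log2 6 in every population, and without detection calls a flat low level cannot be told from background.

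**Figure D3:**
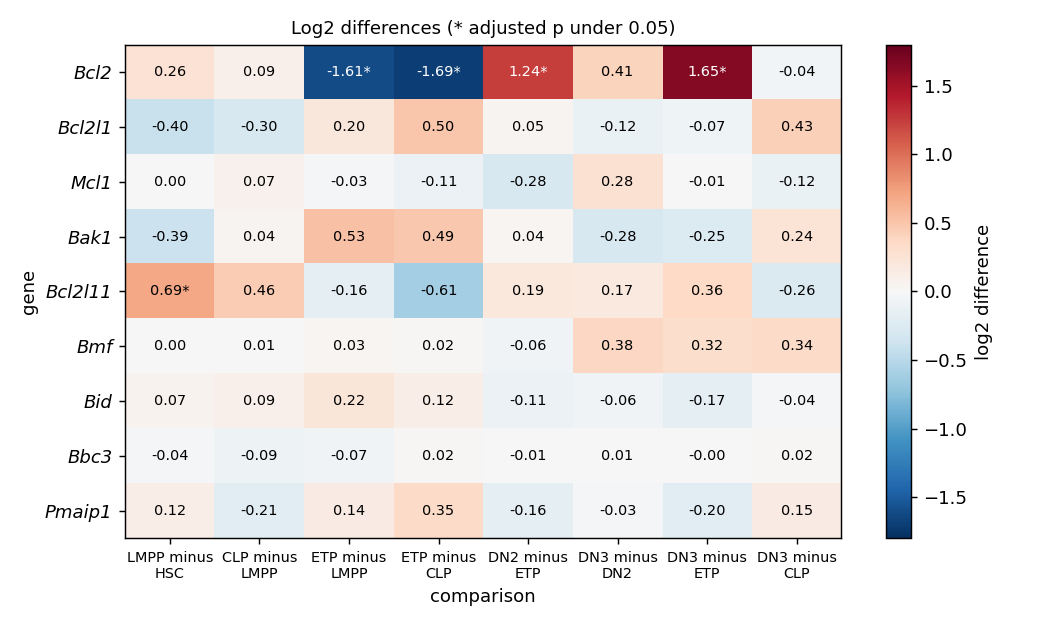
Log2 differences (colour and printed value) of the 9 measured members in the 8 comparisons, each labelled with the population subtracted on its second line; an asterisk marks an adjusted p under 0.05. Asterisks stand at Bcl2 in 4 comparisons that involve ETP and at Bcl2l11 in LMPP minus HSC.

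Of 56 other genes of the apoptosis path and its upstream receptors and regulators, 48 were measured and 11 of them passed the F test, beside 12.2% of all genes. The rest did not pass, with population means spanning at most 0.71. Some of the rest still had 1 or 2 of their 15 contrasts passing, and the counts below cover all 48. In LMPP against HSC 1 of the 48 rose, beside 1.23% of all genes, and 0 fell, beside 1.71%. In CLP against LMPP 2 rose and 1 fell, beside 1.14% of genes passing in either direction. In ETP against LMPP 2 rose, beside 1.44%, and 0 fell, beside 0.868%; in ETP against CLP 3 rose, beside 1.41%, and 2 fell, beside 1.1%. Within the thymus 1 rose, beside 0.321%, and 1 fell, beside 0.677%, in DN2 against ETP; 0 rose and 3 fell in DN3 against DN2, beside 1.8% in either direction; and 2 rose, beside 2.68%, and 6 fell, beside 3.89%, in DN3 against ETP. In DN3 against CLP 5 rose and 6 fell, beside 8.69% in either direction. Against HSC, 4 rose and 3 fell in CLP, beside 2.68% and 3.6%. In ETP 4 rose and 0 fell against HSC, beside 2.57% and 2.56%. In DN2 6 rose and 0 fell, beside 1.74% and 2.25%, and in DN3 5 rose and 3 fell, beside 4.17% and 5.43%. DN2 had 4 rising and 0 falling against LMPP, beside 3.06% in either direction, and 3 and 2 against CLP, beside 2.76%. DN3 against LMPP had 6 rising and 6 falling, beside 10%. Several of these calls were lost under some alternatives, single arrays left out among them, and not all are listed here. Those of Foxo1 and Kit in CLP against LMPP were lost under 11 and 10 of 19, and that of Casp8 in DN3 against DN2 under 12 of 17. Fewer alternatives lost Kit in ETP against CLP (4 of 19), Diablo in DN3 against CLP (3 of 19) and Fasl in DN2 against ETP (1 of 17). Over the 15 contrasts the median difference of the 48 ranged from -0.027 in CLP against LMPP to 0.10 in DN3 against LMPP. The medians of all genes there were -0.018 and -0.044.

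Among cytokine receptors, Il7r, the interleukin 7 receptor chain, stood at 9.68 and 9.81 in DN3, against 7.27 and 7.83 in ETP (2.20 ± 0.17 higher, adjusted p = 1.68e-05), and at 10.75 and 10.66 in CLP. In HSC Il7r was lower still (6.29 and 6.47) while Bcl2 was at 9.21 and 8.66. Kit, the stem cell factor receptor, stood at 7.20 and 6.84 in DN3, where Bcl2 was high, against 9.50 and 9.23 in ETP. Kit was high as well in HSC (9.47), LMPP (9.23) and DN2 (9.24), where Bcl2 averaged 8.93, 9.20 and 8.84. Any link of either receptor to the Bcl2 level was not tested. Il7r and Kit commonly serve to sort such cells, and whether they did here is not stated.

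Foxo1, a transcription factor of lymphoid cells, was highest in CLP (7.44 and 7.42), where Bcl2l11 was highest as well. It was 0.64 ± 0.11 above HSC there (7.43 ± 0.015 against 6.79 ± 0.026; adjusted p = 0.00552), and ETP was 0.86 ± 0.11 below CLP (adjusted p = 0.00197). In DN2 Foxo1 was at its lowest, 6.34, where Bcl2l11 was in the middle of its range. Any link of Foxo1 to the Bcl2l11 level was not tested. Mdm2, the ligase that restrains p53, rose to 8.83 ± 0.022 in DN3 against 8.23 ± 0.10 in HSC (adjusted p = 0.00605; 0.0621 without DN3 replicate 2); its F test was lost under 6 of 18 alternatives (adjusted p up to 0.107).

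Fasl and Bcl2l14 were higher in thymic cells than in marrow cells, Fasl in ETP and DN2 and Bcl2l14 in all 3 thymic populations. Fasl, the ligand of the death receptor Fas, stood at 7.94 and 8.03 in ETP and 6.69 in DN2, and between 3.88 and 4.36 on the other 8 arrays. Bcl2l14, a Bcl2-related gene, stood at 7.10 and 7.54 in ETP, 7.25 in DN2 and 6.93 and 7.20 in DN3, and between 5.39 and 6.05 on the 6 marrow arrays; ETP was 1.77 ± 0.18 above LMPP (adjusted p = 0.000437), and DN3 was 0.26 ± 0.18 below ETP (adjusted p = 0.623). Both rose while Bcl2 fell in ETP against LMPP.

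Of the measured caspases and their regulators, Casp6, Casp8, Diablo and Birc3 passed the F test and the rest did not. Like Bnip3, those that passed differed between DN3 and other populations. Casp6, an executioner caspase, stood at 8.09 and 8.28 in DN3, against 6.97 and 7.37 in ETP (1.02 ± 0.18 higher, adjusted p = 0.00631) and 5.93 and 6.39 in HSC. It was already higher in ETP than in HSC (by 1.01 ± 0.18, adjusted p = 0.00879; up to 0.0896 without HSC replicate 1 or ETP replicate 2), and DN3 was 0.29 ± 0.22 above DN2 (adjusted p = 1). The DN3 over ETP call was lost without ETP replicate 1 or DN3 replicate 2 (adjusted p up to 0.0783). Diablo, which frees caspases from their inhibitors, averaged 9.23 ± 0.18 in DN3 against 8.35 ± 0.043 in HSC (0.88 ± 0.16 higher, adjusted p = 0.00487; 0.0628 without DN3 replicate 1, when its F test was lost too, at 0.0877), while DN3 was 0.068 ± 0.20 above DN2, at 9.16 (adjusted p = 1). Casp8, the caspase of death receptors, averaged 10.16 ± 0.022 in DN3 against 10.83 ± 0.091 in ETP, and fell by 0.67 on the log2 scale (adjusted p = 0.00336); its F test was lost without either DN3 array (adjusted p up to 0.0667). Birc3, an inhibitor of apoptosis and of death receptor signalling, averaged 7.45 ± 0.052 in DN3 against 8.41 ± 0.045 in ETP (adjusted p = 0.000453). Bnip3, a mitochondrial protein of the wider family induced by low oxygen, averaged 6.56 ± 0.27 in DN3 against 7.65 ± 0.0050 in ETP (adjusted p = 0.0048; 0.0646 without DN3 replicate 1).

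**Figure D4:**
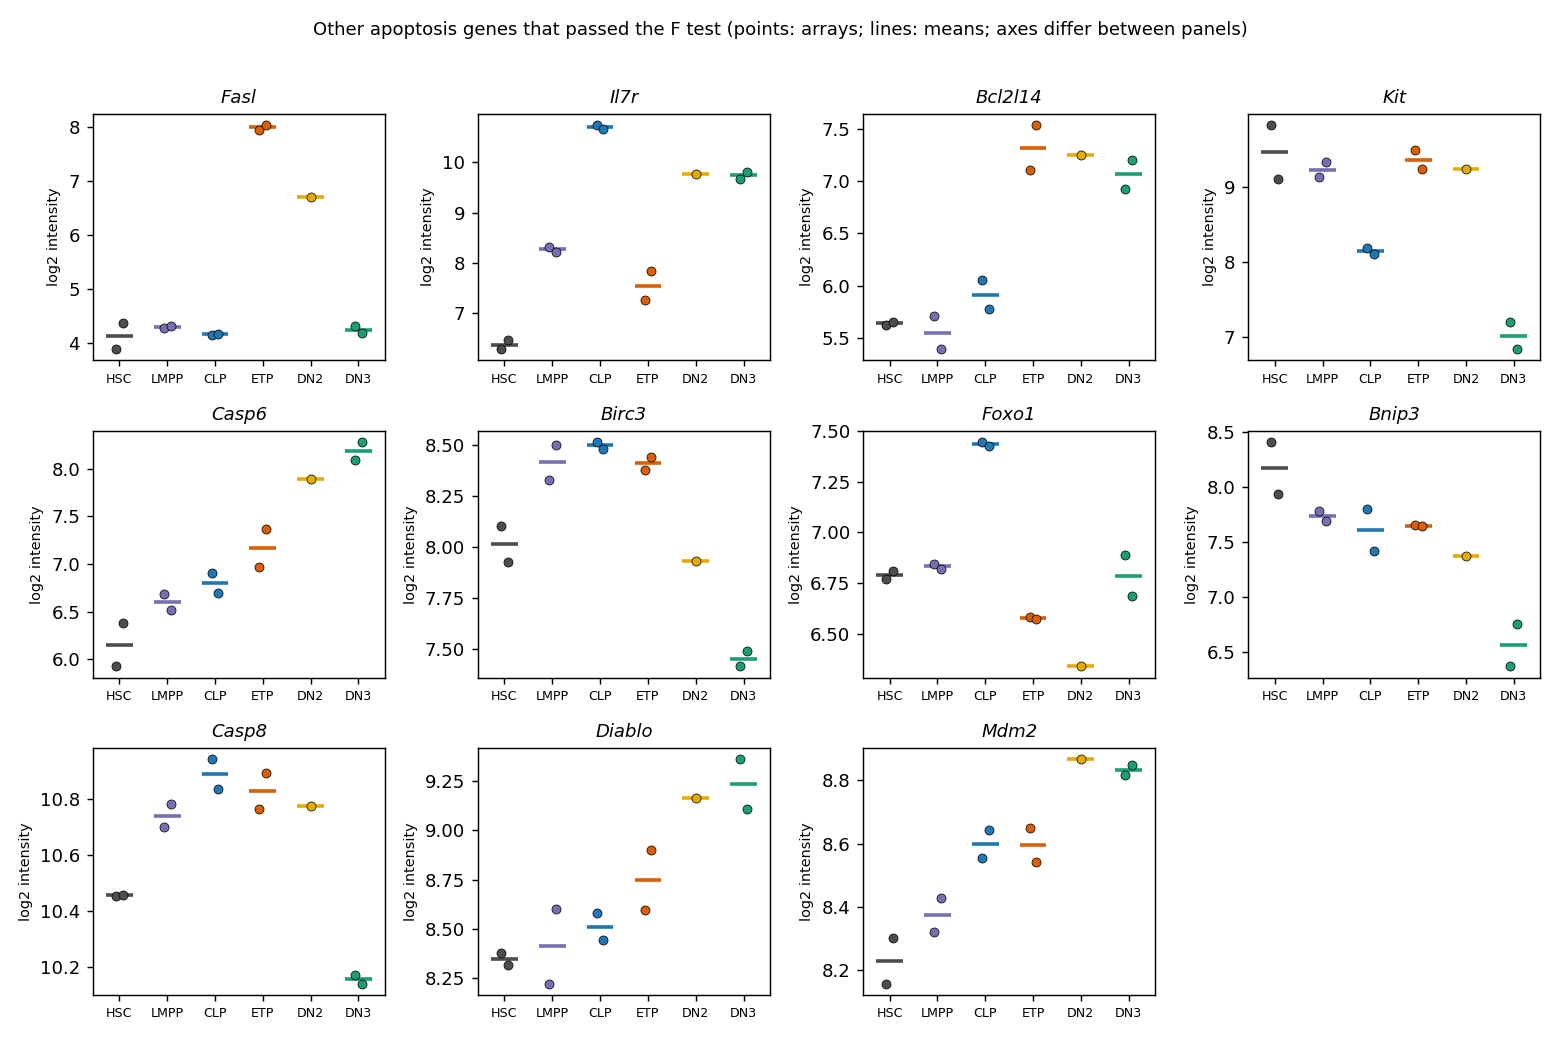
Log2 intensity (vertical axes, which differ between panels) of the 11 other apoptosis genes that passed the F test, by population, marrow first and then thymus. Points are arrays and lines are population means. Fasl stands high in ETP and DN2, Bcl2l14 in ETP, DN2 and DN3, Foxo1 peaks in CLP, and Casp8, Birc3 and Bnip3 are lowest in DN3.

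Genes with profiles most like the 3 widest-ranging members were sought over the 11 arrays among genes whose population means span at least 1, by Pearson r, as a description of 11 arrays in 6 populations that share the same normalization. For Bcl2 these were Tubb2a, a beta tubulin (r = 0.83), Btg2 (0.76) and Mir18 (0.75). Bcl2l11 was followed more closely, by Rag2 (0.95), a subunit of the antigen receptor recombinase, Tapt1 (0.95) and Iftap (0.94). Bcl2l1 was followed by Aldoa (0.91), a glycolytic aldolase, Snap23 (0.90), a membrane fusion protein, and Maff (0.90). Rag2 averaged 9.09 ± 0.13 in CLP and 9.08 ± 0.0090 in DN3 (SD, n = 2 each), the 2 populations where Bcl2l11 was highest, and 4.79 ± 0.11 in HSC, where Bcl2l11 was lowest.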

How the data were processed

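Total RNA of sorted cells was labelled with biotin and hybridised to Affymetrix arrays, per the labels' protocols. The deposited values are log2 probe set intensities made by the authors with RMA, per the submitters' processing notes; no version, chip definition or build is named in these sources, and the values themselves show the log2 scale. RMA corrects background and normalizes quantiles, so only changes relative to the other genes of an array are seen. Of 35556 probe sets, 21789 carried 1 gene symbol in the platform annotation; the brightest per gene gave 19938 genes, and none was left out for dimness. Thymic samples whose descriptions name bone marrow were taken as thymus from their tissue label.

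One limma 3.58.1 fit (R 4.3.3) of 6 population means over 11 arrays (residual degrees of freedom 5, spread moderated) gave the F test and the 15 contrasts; p-values, two-sided, had Benjamini-Hochberg adjustment across all 19938 genes. The lone DN2 array took its spread from the other populations. Intervals are 95% intervals from that fit. The number of arrays limits the precision. The script was tested on simulated data. The members and lists were chosen with earlier results of these data known. Named genes were all members, other apoptosis genes passing the F test, label markers, and for the 3 widest-ranging members the 3 genes of highest r. Motifs were searched in Python 3.11.15 and figures drawn with matplotlib 3.10.9. Alternatives were a filter on dim genes, quantile normalization once more, median centring, averaging the probe sets of a gene, array weights, a trended robust prior, replicate number as a block, other thresholds, fits of 2 populations alone, and leaving out each array.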

Additional observations from a re-analysis of the deposited data

How the results depend on the processing

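The count of 2 members passing the F test was 2 under each alternative run, and that of the other apoptosis genes was 11, between 8 and 13 when 1 array was left out. For LMPP against HSC the 1 member called became 0 after median centring, with array weights, with a 2-fold minimum and in the fit of the 2 populations alone, and was 0 to 1 when 1 array was left out. For ETP against CLP the 1 member became 2 with the filter on dim genes (11862 genes kept, Bbc3 not among them), after quantile normalization once more and with the replicate block, since Bcl2l11 then passed too (adjusted p = 0.0456, 0.033 and 0.0355). For DN2 against ETP the 1 member became 0 after median centring and with the replicate block (Bcl2, adjusted p = 0.0664), and was 0 to 1 when 1 array was left out. Bcl2l11 in ETP against HSC passed with the replicate block as well (adjusted p = 0.0384). The cause of these changes was not tested. The labels give populations the same replicate numbers without saying what they share, and deviations of same-numbered arrays correlated between -0.26 and 0.28, so the numbers are not taken as pairs. The 95 called results of the members and of the 11 other apoptosis genes passing the F test had 1719 alternative values. Of these, 1563 kept the call, 156 lost it and 0 changed sign. An F test has no sign and many alternatives leave a difference unchanged, so that 0 says little. Called contrasts of the remaining apoptosis genes were not rerun. Depth is not defined for arrays. Dim genes such as Bbc3, and the HSC level of Bcl2l11, are limited by background.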
